A study of Mus musculus with 5 samples.

Results

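Globins and erythroid genes were followed here through 5 expression arrays of a germinal zone in the embryonic mouse forebrain, the medial ganglionic eminence or MGE, where many cortical interneurons are born. The genes are Hbb-y, Hbb-bh1, Hba-x, Hbb-b2, Alas2 and Slc4a1. Every probe set that carried 1 of these symbols alone in the platform annotation was taken, which gave 13 probe sets for 6 of the 18193 genes named on the array. The study set Dlx1/2 mutants (titled -/-), mutant in a pair of homeobox regulators of interneuron development, against wild type (WT), all at E15.5, a stage of embryonic development. RNA came from the dissected ventricular and subventricular zone of the rostral MGE, or from primary neuronal cultures prepared from the same zone. There were 2 arrays of mutant tissue, 1 of WT tissue, 1 of mutant culture and 1 of WT culture. The WT tissue array is called WT in its description, while its title gives the genotype only as +/. The mutant tissue arrays are titled differently, 1 as neuronal progenitors and 1 as MGE. The labels used here do not state how long the cultures were grown, whether vessels were flushed before dissection, the strain, or whether the arrays of mutant tissue came from separate embryos, so p-values cover array-to-array spread only, and that spread may be technical.

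Hemoglobin, the oxygen carrier of red blood cells, is a tetramer of alpha-type and beta-type globin chains, each holding a heme group. The first red cells of the mouse embryo arise in the yolk sac and use embryonic globins, while later cells from the fetal liver use the adult genes, so blood at mid to late gestation can carry both. Red cells are not made in the brain, but they circulate in its growing vessels and can remain in dissected tissue. In bulk RNA, fewer cells of a type and less RNA per cell cannot be told apart.

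Each probe set had a deposited signal, a linear intensity, on every array, and array medians lay between 26.2 and 29.8. For tests the arrays were quantile normalized, values below a signal of 5.15 (the pooled 20th percentile, 2.36 on the log2 scale) were raised to that floor, and the brightest probe set stood for its gene. A difference is on the log2 scale with its standard error (SE) from limma, and adjusted p below 0.05 over all 11063 genes tested counted as past the threshold. The targeted genes followed the labels: Dlx1 read 2.80 and 0.921 in mutant tissue against 3278 in WT tissue, and 1.26 in mutant culture against 603 in WT culture. All 12 markers of the MGE, progenitors and neurons were bright enough to be tested; Sox2, a progenitor factor, lay between 2817 and 6319 on the 5 arrays.

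The embryonic beta-like globin gene Hbb-y had a high signal in tissue and one near the floor in culture. By its brightest probe set its deposited signal was 8842 and 7771 in mutant tissue against 10635 in WT tissue, and 3.98 in mutant culture against 6.30 in WT culture. The 3 tissue arrays were far above both cultures, with no overlap, and in WT tissue the probe set outranked 99.6% of all probe sets. Culture was lower than tissue by a fitted log2 difference of −10.63 ± 0.12 (SE, limma adjusted p = 3.5e-09), the most negative value among the 11063 genes tested. In mutants the normalized culture value lay at the floor, so it was at least 1691-fold lower than in mutant tissue. WT culture was just above the floor by this probe set, at 1458-fold below WT tissue, and at the floor by the other Hbb-y probe sets, so its fold is uncertain. The other probe sets of Hbb-y gave the same picture, with log2 differences of −10.76 ± 0.12 and −9.66 ± 0.15 across genotypes in a fit of all probe sets.

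Hbb-bh1 encodes another embryonic beta-like chain and Hba-x the embryonic alpha-like zeta chain. Hba-x, with 1 probe set, read 471 and 504 in mutant tissue against 702 in WT tissue, and 2.51 in mutant culture against 2.46 in WT culture. Both cultures lay at the floor, at least 93.2-fold below tissue in mutants and at least 139-fold in WT (log2 difference across genotypes −6.79 ± 0.22, limma adjusted p = 2.4e-06). The brightest probe set of Hbb-bh1 read 90.2 and 60.8 in mutant tissue against 176 in WT tissue, and 1.92 in mutant culture against 1.31 in WT culture. It too was at the floor in both cultures, so the fitted values of such genes are not bounds, and the folds given as "at least" are. It was at least 13.9-fold below tissue in mutants and at least 34.4-fold in WT (−4.36 ± 0.45, limma adjusted p = 0.00027).

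Hbb-b2 encodes an adult beta chain, and its probe sets may also catch RNA of the near-identical adult genes Hbb-b1, Hbb-bs and Hbb-bt, so the level cannot be given to Hbb-b2 alone. The brighter probe set read 199 and 244 in mutant tissue against 413 in WT tissue, and 1.12 in mutant culture against 0.716 in WT culture. Culture was at the floor, at least 41.6-fold below tissue in mutants and at least 80.6-fold in WT (−5.79 ± 0.31, limma adjusted p = 1.3e-05). The dimmer probe set read 33.4 and 56.2 in mutant tissue against 44.0 in WT tissue, and 4.37 in mutant culture against 10.2 in WT culture. It fell short of the brightness needed for a test and kept the same order of tissue over culture. A further 4 probe sets carry several adult alpha or beta globin symbols each and were not used.

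Alas2, an X-linked gene, encodes the erythroid enzyme for the first step of heme synthesis. Its 1 probe set read 245 and 225 in mutant tissue against 270 in WT tissue, and 1.54 in mutant culture against 1.80 in WT culture. Culture was at the floor, at least 44.2-fold below tissue in mutants and at least 52.9-fold in WT (−5.58 ± 0.26, limma adjusted p = 7.7e-06). Slc4a1 encodes band 3, the anion exchanger that ties the red cell membrane to its skeleton. Its brightest probe set read 84.8 and 57.7 in mutant tissue against 103 in WT tissue, and 10.3 in mutant culture against 8.75 in WT culture. Alone among the 6 genes, it stayed above the floor in both cultures by its brightest probe set. It was 6.87-fold lower in culture in mutants and 11.5-fold lower in WT (−3.10 ± 0.38, limma adjusted p = 0.00064). A second probe set of Slc4a1 gave 73.0 and 70.9 in mutant tissue against 76.7 in WT tissue, and 11.1 in mutant culture against 4.43 in WT culture. The remaining Slc4a1 probe set was at the floor on all 5 arrays and measured nothing here.

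**Figure D1:**
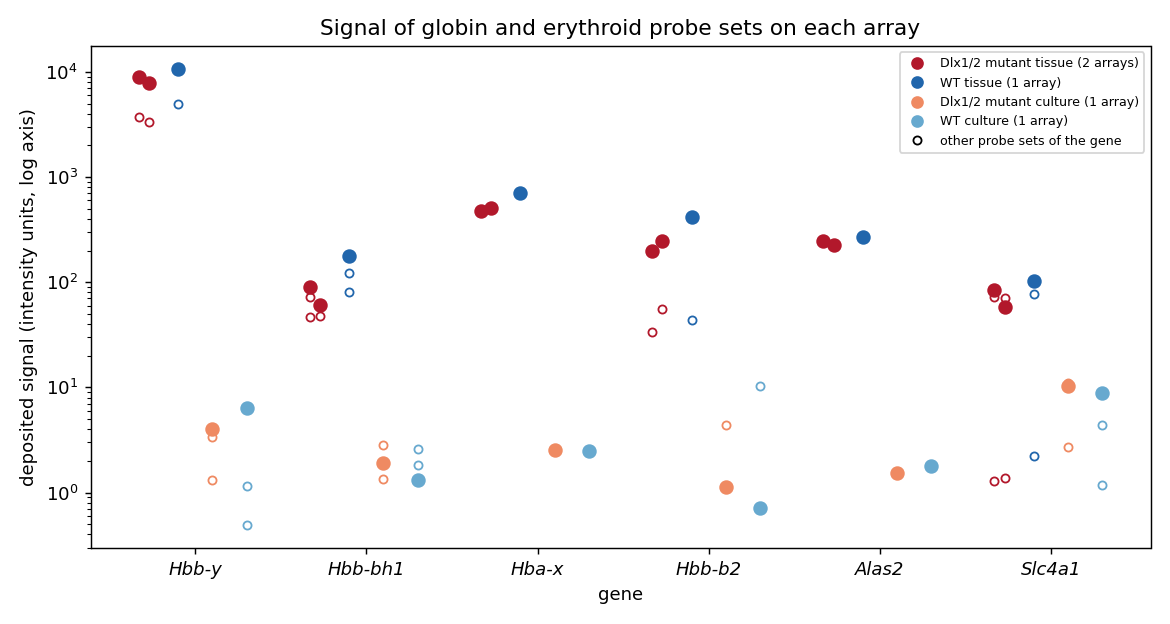
Deposited signal (intensity units, log axis) of each probe set of the 6 genes on each array; filled points are the brightest probe set of a gene, open points its other probe sets, and colours mark mutant tissue, WT tissue, mutant culture and WT culture. Hbb-y lies between 7771 and 10635 in tissue by its brightest probe set, and all filled culture points lie at or below 10.3.

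In all, 6 of 6 genes were lower in culture than in tissue past the threshold, against 19.2% of the genes tested that were lower. That count needs care, because a gene near the floor in culture could pass the brightness filter only by being high in tissue. With all 18193 genes tested and no filter, 6 of 6 were again lower, against 5.12% of genes. Counting probe sets, 12 of 13 were lower in both cultures than in all 3 tissue arrays, and the exception was the Slc4a1 probe set at the floor throughout. No share of all probe sets with this order is given here, so that count is a description only. Both cultures were at the floor for 4 of the 6 genes, Hba-x, Hbb-bh1, Hbb-b2 and Alas2. Of the 10312 genes above the filter level in every tissue array, 0.184% were at the floor in both cultures.

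Within each genotype the same 6 genes were lower in culture, against 21.4% of genes lower in mutants and 18.1% lower in WT. The sharpest estimates were for Hbb-y, with −10.72 ± 0.11 in mutants (limma adjusted p = 1.8e-11) and −10.51 ± 0.13 in WT (limma adjusted p = 8.8e-11). The least negative were for Slc4a1, with −2.78 ± 0.44 (limma adjusted p = 0.00072) in mutants and −3.52 ± 0.51 (limma adjusted p = 0.00056) in WT. These contrasts take their spread from the pair of mutant tissue arrays, so single arrays were assumed to vary alike. Without the brightness filter, 2 of 6 genes, Hbb-y and Hba-x, passed within either genotype, against 0.253% of genes lower in mutants and 1.52% lower in WT under that setting.

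**Figure D2:**
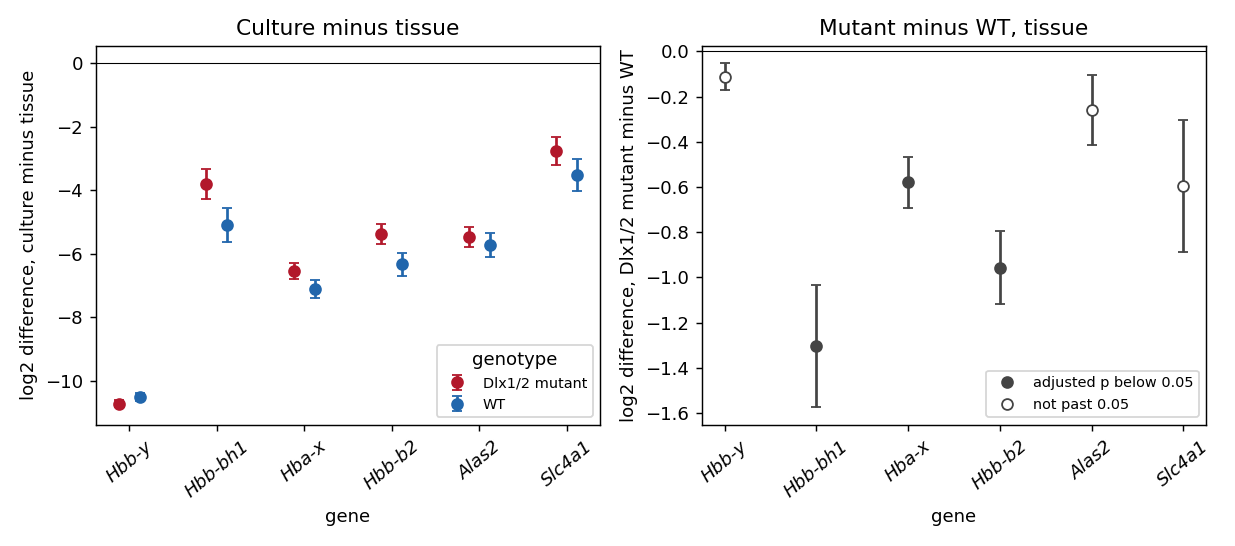
Left, log2 difference of culture minus tissue for each gene within mutants and within WT; right, log2 difference of mutant minus WT in tissue, with filled points past an adjusted p of 0.05. Points are limma estimates and bars their SE. Culture values are far below 0 for all 6 genes, and in tissue the 3 filled points are Hbb-bh1, Hba-x and Hbb-b2.

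For the red cell genes that moved together between tissue and culture, RefSeq (GRCm38.p6) supplied a promoter window for 3 of the 6. They are shown because GATA and Krüppel-like (CACCC-binding) factors are known regulators of erythroid genes in mice. The 250 bases before each annotated start are printed 5′ to 3′ on the gene's own strand, at chr7:103853208-103853457 (minus strand) for Hbb-y, chr11:32276350-32276599 (plus strand) for Hba-x and chrX:150547167-150547416 (plus strand) for Alas2. Capitals mark every match, on either strand, to the following motifs. The GATA motif was AGATAA or AGATAG, or either with T as its first letter. The CACCC box was CCNCNCCC, the TATA-type box was TATAAA or its variant CATAAA, and CCAAT was searched as it stands. CCACCC was added after the windows had been read, and matches can overlap.
Hbb-y: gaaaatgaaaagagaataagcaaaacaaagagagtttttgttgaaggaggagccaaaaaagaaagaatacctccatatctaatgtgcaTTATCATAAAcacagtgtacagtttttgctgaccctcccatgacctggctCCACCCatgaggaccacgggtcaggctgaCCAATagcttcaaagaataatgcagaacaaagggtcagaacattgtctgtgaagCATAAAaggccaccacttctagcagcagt
Hba-x: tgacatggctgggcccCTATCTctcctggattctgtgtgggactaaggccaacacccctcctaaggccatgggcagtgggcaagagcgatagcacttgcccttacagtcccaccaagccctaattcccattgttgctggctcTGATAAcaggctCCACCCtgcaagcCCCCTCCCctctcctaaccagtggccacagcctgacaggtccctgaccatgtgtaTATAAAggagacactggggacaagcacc
Alas2: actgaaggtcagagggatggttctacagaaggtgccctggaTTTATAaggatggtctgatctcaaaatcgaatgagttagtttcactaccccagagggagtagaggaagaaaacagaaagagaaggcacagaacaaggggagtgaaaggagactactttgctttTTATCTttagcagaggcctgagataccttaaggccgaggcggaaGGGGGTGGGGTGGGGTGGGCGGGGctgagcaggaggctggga

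All 3 windows held a GATA motif, which 26.5% of the 32851 promoter windows of the same length held. In Hbb-y it lay at −162 to −157 from the start and overlapped a CATAAA, and in Alas2 it lay at −86 to −81. Hba-x had 2, at −234 to −229 and at −108 to −103. The CACCC box was present in Hba-x and Alas2, against 45.9% of windows. The shorter CCACCC was in all 3, but it was chosen after these windows had been read, so its presence is a description only (28.1% of windows held it). A TATA-type box was present at −29 to −24 in Hbb-y and at −28 to −23 in Hba-x, and at −209 to −204 on the opposite strand in Alas2 (20.9% of windows). CCAAT was found only in the Hbb-y window of these 3 (33.8% of windows). These matches are letters in a window and were not measured as binding sites.

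In tissue, the embryonic globin genes Hbb-bh1 and Hba-x and the brighter probe set of Hbb-b2 were lower in Dlx1/2 mutants than in WT, while Hbb-y, Alas2 and Slc4a1 did not pass the test. The brightest probe set of all 6 genes was lower in both mutant arrays than in the WT array, an order that 40.2% of the genes tested also had. Past the threshold, 3 of 6 fell and 0 rose, against 6.70% of genes that fell, 8.59% that rose and 15.3% called in either direction. The median of the 6 was −0.59, against 0.0010 over all genes tested. When each array was scaled to the same median instead, 382 genes were lower and 1114 higher in place of 741 and 950, the median of all genes moved to 0.11, and the same 3 genes fell.

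Hbb-bh1 fell by 1.30 ± 0.27 on the log2 scale, 2.47-fold (limma adjusted p = 0.0067). Its other probe sets, too dim for a test, differed by −0.91 and −0.82. Hbb-b2 fell by 0.96 ± 0.16, 1.94-fold, by its brighter probe set (limma adjusted p = 0.0016). The dimmer probe set of Hbb-b2 differed by 0.01, with the WT value between those of the mutant arrays, so the fall rests on a single probe set. Hba-x fell by 0.58 ± 0.11, 1.49-fold (limma adjusted p = 0.0048).

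Hbb-y differed by −0.11 ± 0.06 in tissue (limma adjusted p = 0.25) by its brightest probe set. With the deposited scaling kept, the same probe set differed by −0.36 (limma adjusted p = 0.11), so its size depends on the scaling. At the very bright end of an array quantile normalization fixes the values by rank. The dimmest Hbb-y probe set, at 3698 and 3303 in mutant tissue against 4923 in WT tissue, fell by 0.36 ± 0.07 in a fit of all probe sets (limma adjusted p = 0.013). Alas2 differed by −0.26 ± 0.16 (limma adjusted p = 0.30) and Slc4a1 by −0.60 ± 0.29 (limma adjusted p = 0.20). Both mutant arrays were below WT for each of these genes, and a fit with 1 residual degree of freedom does not show that mutant and WT were alike.

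All 3 calls in tissue were lost when dim genes were tested too (0 of 6, against 2.08% of genes lower) and when the variance prior carried no intensity trend (0 of 6, against 0.0181% of genes lower, a setting in which 2 genes in all were called). With 1 WT array the fit has 1 residual degree of freedom, and the spread in WT was not measured. Averaging probe sets of a gene left Hba-x as the 1 call among 4 genes tested, against 2.23% of genes lower.

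In culture the comparison of mutant with WT was 1 array against 1, with no test. By the brightest probe set, 4 of the 6 genes were at the floor in both cultures, so no difference can be read for them. Hbb-y differed by −0.33 with the mutant at the floor, and Slc4a1 by 0.15. Across both preparations 0 of 6 genes passed in limma, and 0 had an unadjusted p under 0.05, against 1.07% of genes called. The estimates lay between −0.15 (Alas2) and −0.74 (Hbb-bh1). For the 4 genes at the floor in both cultures the culture difference is 0 by construction, which pulls this estimate towards 0, so the test says little about them. The test of whether the genotype difference differed between culture and tissue likewise called 0 of 6 in limma, with 0 at an unadjusted p under 0.05, against 4.48% of genes. For the 4 genes at the floor in both cultures it only restates the tissue difference with its sign turned.

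Genes on the lists of other globins and other erythroid genes, 66 with a named probe set, did not follow the 6 genes as a body between culture and tissue. Not all of the globins are of red cells. Of 2 other globin genes tested, Hba-a2 and Cygb, 1 fell and 0 rose in culture (median −0.26). Of 15 heme synthesis and turnover genes tested, 3 fell and 5 rose in culture (median 0.24). Among the 7 red cell membrane and skeleton genes, 3 fell and 0 rose (median −0.52). Of 6 transcription factors, 5 fell and 1 rose (median −1.08), and of 10 iron uptake and enzyme genes 4 fell and 1 rose (median −0.28). The median over all genes tested was 0.0016, and 19.2% fell and 19.6% rose. Many of these genes are also used by neural cells, and Fech, the enzyme that inserts iron into heme, stands on 2 of the lists.

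Slc25a37, the mitochondrial iron importer mitoferrin 1, had the largest fitted fall among those of these other genes that were tested. It read 214 and 229 in mutant tissue against 299.7 in WT tissue, and 51.6 in mutant culture against 32.8 in WT culture. Culture was lower by a log2 difference of −2.49 ± 0.26 (limma adjusted p = 0.00027), with no overlap of tissue and culture. Gypc, a red cell membrane glycophorin, fell by 1.66 ± 0.28 (limma adjusted p = 0.0027), and the alpha globin gene Hba-a2 by 1.53 ± 0.31 (limma adjusted p = 0.0059). Myb, a factor of blood progenitors, fell by 1.41, and Lmo2, a LIM-only partner in erythroid transcription complexes, by 1.12 (limma adjusted p of 0.0022 and 0.0024). In the other direction, the heme-degrading enzyme gene Hmox1 rose by 1.54 ± 0.41 (limma adjusted p = 0.021). Its rise was 2.20 in mutants and 0.65 in WT, with mutant tissue at 16.3 and 19.2 against 47.7 in WT tissue. Klf3, a Krüppel-like repressor, rose by 1.44 ± 0.13 (limma adjusted p = 0.00014) and the porphyrin transporter gene Abcb6 by 1.19 ± 0.23 (limma adjusted p = 0.0051).

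Between mutant and WT tissue, 6 of the 39 tested genes on these lists passed, or 15.4%, near the 15.3% of all genes. They were 5 erythroid genes and Cygb, and all 6 calls were lost both with no filter on dim genes and without a trend in the variance prior. With the mean of probe sets, Add2, Myb, Slc25a37 and Bpgm lost the call too. Slc25a37 also lost it with each array scaled to the same median and with all probe sets fitted. Urod, a heme synthesis enzyme gene, fell by 0.63 ± 0.10 (limma adjusted p = 0.00091), Myb by 0.82 ± 0.19 (limma adjusted p = 0.012) and Slc25a37 by 0.49 ± 0.15 (limma adjusted p = 0.049). Add2, which encodes beta adducin of the membrane skeleton and is also a brain gene, rose by 0.98 ± 0.13 (limma adjusted p = 0.00026), and Bpgm, the red cell bisphosphoglycerate mutase gene, by 0.42 ± 0.10 (limma adjusted p = 0.015). Cygb, a globin of connective and neural cells and not of red cells, read 133 and 108 in mutant tissue against 12.4 in WT tissue, and 119 in mutant culture against 52.0 in WT culture. It rose by 3.31 ± 0.32 in tissue (limma adjusted p = 4.1e-05), opposite in direction to Hba-x, Hbb-b2 and Hbb-bh1.

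**Figure D3:**
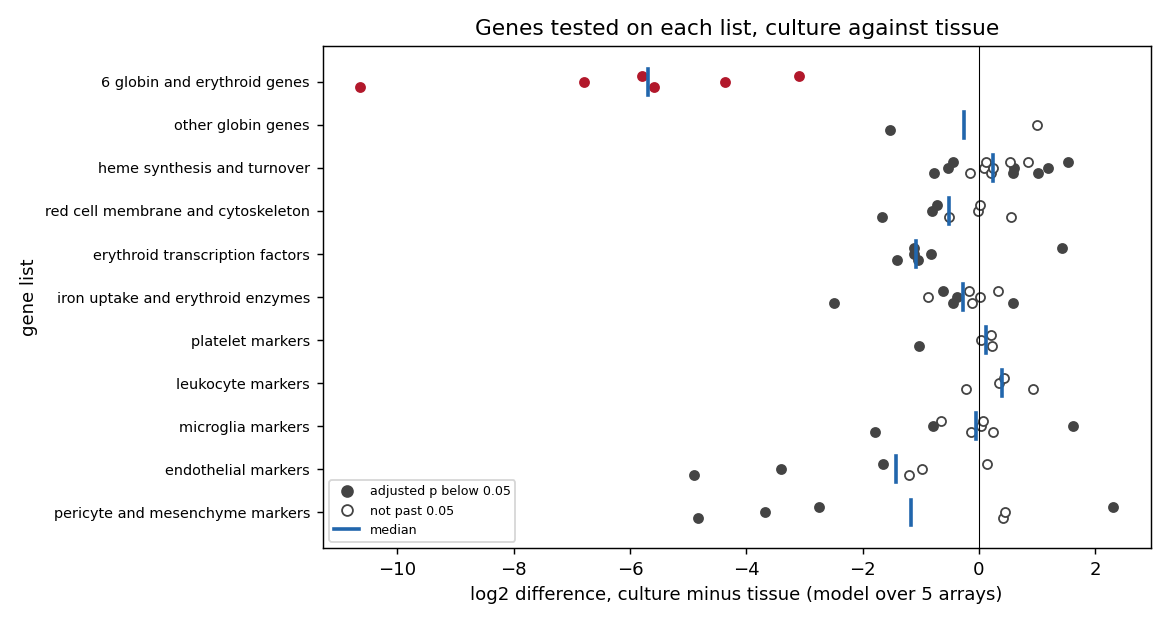
Log2 difference of culture minus tissue (model over 5 arrays) for each gene tested on each list; filled points are past an adjusted p of 0.05 and the blue bar is the list's median. The 6 globin and erythroid genes lie between −10.63 and −3.10, and the other erythroid lists lie on both sides of 0.

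Markers of other cell types, of vessels, blood and brain, were read on the same arrays. The summed deposited signal of the 6 genes was 9932 and 8863 in mutant tissue against 12299 in WT tissue, and 21.3 in each culture. Hbb-y alone gave 8842 and 7771 of it in mutant tissue and 10635 in WT tissue, so the tissue sums mainly follow Hbb-y. In culture the largest part was Slc4a1, at 10.3 in mutants and 8.75 in WT. For 11 endothelial markers with a named probe set the summed signal was 1047 and 1188 in mutant tissue against 1234 in WT tissue, and 311 in mutant culture against 219 in WT culture. Of 6 endothelial markers tested 3 fell and 0 rose in culture: the tight junction gene Cldn5 by 4.89 ± 0.17 (limma adjusted p = 2.7e-06) and the adhesion gene Esam by 3.40 ± 0.33 (limma adjusted p = 0.00020) were among the falls. Kdr, the main VEGF receptor gene, differed by 0.14 ± 0.20 (limma adjusted p = 0.60) and read 135 in mutant culture and 82.7 in WT culture. Kdr was thus read above the floor in both cultures, while Pecam1 and Tie1, too dim to be tested, were at the floor in both. Slco1a4, also too dim to be tested, went the other way and was at the floor in tissue. It read 3.55 and 1.01 in mutant tissue against 3.26 in WT tissue, and 23.8 in mutant culture against 32.8 in WT culture. Over all 11 endothelial markers with a named probe set, the median log2 difference of culture minus tissue was −1.88 in mutants and −1.79 in WT.

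Pericyte and mesenchyme markers were mixed, with 3 of 6 lower in culture and 1 higher. The largest fall was that of the potassium channel regulator gene Abcc9 (−4.83 ± 0.32, limma adjusted p = 4.0e-05), at the floor in both cultures. Kcnj8 followed (−3.68 ± 0.31, limma adjusted p = 0.00010), and Rgs5, a pericyte gene, fell by 2.74 ± 0.17 (limma adjusted p = 2.9e-05). The collagen gene Col1a2 was the member that rose, and Pdgfrb differed by 0.44 (limma adjusted p = 0.077). Their sums were 990 and 1040 in mutant tissue against 1172 in WT tissue, and 578 in mutant culture against 600 in WT culture. Microglia markers summed to 919 and 945 in mutant tissue against 821 in WT tissue, and to 601 in mutant culture against 727 in WT culture, with 2 of 8 lower and 1 higher in culture. Csf1r, the receptor of the main microglial growth factor, was lower by 1.79 ± 0.17 (limma adjusted p = 0.00017), while C1qa and Tyrobp did not pass.

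Blood leukocyte and platelet markers were read too. Of 4 leukocyte markers tested, 0 passed between culture and tissue in limma, with 1 at an unadjusted p under 0.05. The sums of all leukocyte markers with a named probe set were 478 and 504 in mutant tissue against 548 in WT tissue, and 489 in mutant culture against 559 in WT culture. Coro1a, Lyz2 and Cd52 were the brightest. Coro1a alone gave 301 and 329 in mutant tissue, 329 in WT tissue, 243 in mutant culture and 297 in WT culture, so these sums mainly follow Coro1a. Of 4 platelet markers tested, 1 fell: Pf4, a platelet chemokine gene, by 1.03 ± 0.30 (limma adjusted p = 0.029). Platelet sums were 259 and 321 in mutant tissue against 341 in WT tissue, and 278 in mutant culture against 240 in WT culture; Gp1bb and Itga2b were among the brightest. The part of these other cell types in the culture difference of the 6 genes was not tested.

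Between mutant and WT tissue none of these lists had a member past the limma threshold: 0 of 6 endothelial, 0 of 6 pericyte and mesenchyme, 0 of 8 microglial, 0 of 4 leukocyte and 0 of 4 platelet markers. Over all genes tested, 15.3% passed in either direction. At an unadjusted limma p under 0.05 the counts on the lists were 2, 1, 1, 0 and 1, in the same order. The share of all genes at that level is not given here. With lists this short and 1 residual degree of freedom, these counts do not show that mutant and WT were alike. The medians of the genes tested were −0.39 for pericyte and mesenchyme, −0.16 for endothelial, 0.09 for microglial, −0.10 for leukocyte and −0.16 for platelet markers. The endothelial markers tested lay 3 above and 3 below 0, and over all 11 with a named probe set their median was 0. The part of vessel content in the globin difference was not tested.

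**Figure D4:**
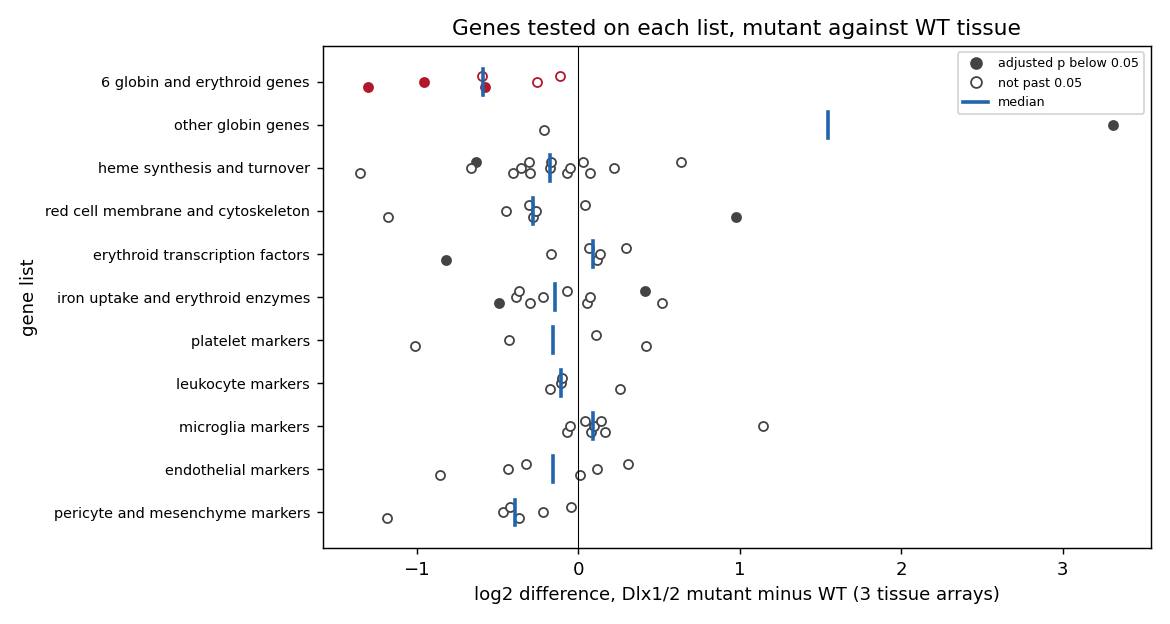
Log2 difference of mutant minus WT over the 3 tissue arrays for each gene tested on each list; filled points are past an adjusted p of 0.05 and the blue bar is the list's median. The 6 globin and erythroid genes all lie below 0, with a median of −0.59, and Cygb lies at 3.31.

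The genes whose profile over the 5 arrays was closest to the mean profile of the 6 genes were found by the root mean square difference of centred log2 values. Closest was Aplnr, the apelin receptor gene, at 0.31. It read 462 and 436 in mutant tissue against 436 in WT tissue, and 7.90 in mutant culture against 0.708 in WT culture. Both cultures were far below the tissue arrays, and the mutant tissue arrays stood on either side of WT tissue. Next came Cldn5 at 0.57, the growth factor gene Igf2 at 0.59 and Abcc9, of the pericyte and mesenchyme list, at 0.60. After them stood Apod (0.73), Cd34 (0.82), Slc38a5 (0.86), Crabp2 (0.91), St18 (0.989) and Hes5 (0.995).

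Taken gene by gene, Hbb-b2 and Alas2 were each other's nearest genes (0.30). Hba-x was nearest to Aplnr (0.40), then to Hbb-b2 (0.55) and Alas2 (0.60). Hbb-y, with its larger span, had Hba-x nearest, at 1.95. Hbb-bh1 was nearest to Crabp2, a retinoic acid binding protein gene, at 0.33: Crabp2 read 112 and 106 in mutant tissue against 278 in WT tissue, and 4.11 in mutant culture against 9.48 in WT culture. Slc4a1 was nearest to Ctla2a (0.15), Tmem204 (0.19) and Dleu7 (0.21). Over 5 arrays with a single large contrast between tissue and culture, such nearness describes the values and no more.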

How the data were processed

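The deposited table holds 1 linear intensity per probe set and array, which the authors had scaled: leaving out the top and bottom 2% of values, every array averages 150. Which software they used is not stated by the sources used here. Array medians differed by up to 0.18 on the log2 scale. Values were quantile normalized, floored at the pooled 20th percentile and log2 transformed. Symbols came from the platform annotation: 34945 had 1 symbol and were used, 932 had several, and 64 controls were left out. The brightest probe set stood for each gene, and the 11063 genes with a mean above the pooled median (a signal of 27.8) were tested in R 4.3.3 by limma 3.58.1 (variance prior with a trend over intensity) with Benjamini-Hochberg adjustment. Genotype in tissue used 3 arrays (1 residual and 10.9 prior degrees of freedom). Genotype across preparations, and culture against tissue, used an additive model over 5 arrays (2 residual). The interaction and the contrasts within a genotype used a model of 4 groups (1 residual). The estimates of the fits, not their power, were checked on simulated data. The number of arrays limits all precision.

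Members, gene lists, tests and alternatives were chosen with earlier results of these data known. Named genes were all 6 members with each probe set, the brightest markers of other cell types, and the genes nearest in profile. From the lists of other globins and erythroid genes, up to 8 past the threshold were named per comparison, by size. Any other named gene was chosen after its values were seen. Promoter sequences are from RefSeq, build GRCm38.p6. Alternatives covered scaling, floor, filter, probe set rule, variance prior and each mutant tissue array left out.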

Additional observations from a re-analysis of the deposited data

Results flagged for a closer look

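Slc4a1 differed between mutant and WT in opposite directions in the 2 preparations. By its brightest probe set, both mutant tissue arrays were lower than WT tissue, while mutant culture was higher than WT culture by 0.15 on the log2 scale. Its second probe set also had both mutant tissue arrays below WT, and mutant culture higher by 1.07 with WT culture at the floor. The difference between preparations was not past the threshold (limma interaction adjusted p = 0.60 by the brightest probe set).

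Cygb, the non-erythroid globin gene, had an interaction of −2.17 ± 0.46 (limma adjusted p = 0.030): mutants were higher by 3.31 in tissue and by 1.14 in culture. Of 7 alternative settings the interaction passed only with the deposited scaling kept (limma adjusted p = 0.020), and its adjusted p under the others lay between 0.057 and 0.30. Slc25a37 was lower in mutant tissue but higher by 0.60 in mutant culture, and Bpgm was higher in mutant tissue but differed by −0.15 in culture. For Slc25a37 and Bpgm the limma interaction had adjusted p values of 0.089 and 0.066, not past the threshold, and each culture value is 1 array against 1.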

How the results depend on the processing

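All 49 values of the 6 genes for culture against tissue under the alternatives run kept their direction and stayed past the threshold. Of 40 values for genotype in tissue, 33 kept their side of the threshold and 7 lost the call, none turning direction. The count of 3 genes lower in mutant tissue became 0 with no filter on dim genes, 0 without a trend in the variance prior and 1 with the mean of all probe sets (4 of 6 tested). Within mutants and within WT, the 6 calls of culture against tissue became 2 each with no filter. Interactions that turned sign were those of Hbb-y, from −0.21 to 0.073 with the deposited scaling and 0.10 with the mean of probe sets, and of Hbb-b2, to −0.047 with that mean (limma adjusted p of 0.87, 0.81 and 0.97). The causes were not tested. Of 14 calls named for other genes in culture against tissue, 7 were lost with no filter (Gypc, Hmox1, Hba-a2, Myb, Abcb6, Lmo2 and Pf4); Hmox1 was also lost without mutant tissue replicate 1 and Pf4 without replicate 2, and Klf3 with the mean of probe sets (Col1a2 was not tested there). With 1 mutant tissue array left out, 4 or 5 of the 6 genes passed the filter, through their tissue values, and all of them were lower in culture. Among all genes tested, 1285 of 11101 were lower without replicate 1 and 1344 of 11137 without replicate 2. With 1 of these arrays left out, tissue genotype and the 4-group contrasts have no residual degrees of freedom and were not run. No paired analysis was possible because the groups share only replicate number 1.

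Counts over all genes moved more. For genotype in tissue 1691 became 389 (no filter), 489 (mean of probe sets) and 2 (no trend). Across preparations 118 became 0, 35 and 4 under those settings, and 33 or 39 with a mutant tissue array left out. For culture against tissue 4297 became 1894 with no filter, 6742 probe sets with all of them fitted, and 2834 without mutant tissue replicate 1. Interaction calls, 496, became 263 (same median, 188 lower and 75 higher against 251 and 245), 4 (mean of probe sets) and 0 (no trend). In mutants 4738 became 485, 2886, 7207 and 2682 with no filter, mean, all probe sets and no trend. In WT 4081 became 660, 2298 and 1594 with no filter, mean and no trend, and the same median gave 1271 lower and 2588 higher against 1997 and 2084.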

Other observations

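Several genes on the erythroid and other globin lists were too dim on average to be tested and are given as deposited signals. They were chosen after their values were seen. Tspo2, an erythroid translocator protein gene, read 31.9 and 57.1 in mutant tissue against 43.6 in WT tissue, and 3.46 in mutant culture against 4.95 in WT culture, so that tissue and culture did not overlap. Gata1, the erythroid GATA factor gene, read 21.8 and 23.0 in mutant tissue against 30.8 in WT tissue, and 5.04 in mutant culture against 24.2 in WT culture. Klf1, the erythroid Krüppel-like factor gene, read 2.22 and 23.5 in mutant tissue against 19.7 in WT tissue, and 34.3 in mutant culture against 5.19 in WT culture. The alpha globin gene Hba-a1 read 2.68 and 17.4 in mutant tissue against 26.9 in WT tissue, and 1.72 in mutant culture against 3.81 in WT culture. The values of Gata1, Klf1 and Hba-a1 overlap between tissue and culture. Probe sets that carry several adult globin symbols were not used, so the values of Hba-a1 and Hba-a2 need not give the level of adult alpha globin RNA.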
